A study of Mus musculus with 4 samples.

Results

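The 9 genes described here write, copy or remove 5-methylcytosine: Dnmt1, Dnmt3a, Dnmt3b, Dnmt3l, Uhrf1, Tet1, Tet2, Tet3 and Tdg. They were taken by name, 9 of 17274 mouse protein-coding genes with a start in the RefSeq promoter table used. Every called peak in a gene body or within 50 kb of either side of it was kept, which gave 234 of the 149234 peaks on the autosomes and X (42 of H3K4me3, 86 of CTCF and 106 of RAD21). All positions are mm10, counted from 1.

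The peaks come from Bruce-4, a line of mouse embryonic stem cells of C57BL/6J genotype kept on gelatin in serum/2i/LIF medium, with no treatment or genotype compared. Libraries were made by ChIP-exo, in which an exonuclease trims immunoprecipitated DNA back to the crosslinked protein, from 10000000 cells crosslinked in 1% formaldehyde over 10 min. There were 4 libraries: 1 for H3K4me3, a histone mark of active and poised promoters, 2 for CTCF, a DNA-binding protein with zinc fingers at which cohesin stalls, and 1 for RAD21, which belongs to the cohesin ring. A single peak list per antibody was used, the CTCF list being a union, so there is no replicate error, presence or absence of a peak is described without a test, and a missing peak says only that none was called.

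Methylation of CpG sites is laid down de novo by Dnmt3a and Dnmt3b with the catalytically inactive cofactor Dnmt3l. It is copied at replication by Dnmt1, which Uhrf1 recruits to hemimethylated sites. Tet1, Tet2 and Tet3 oxidise the methyl group, and Tdg, a thymine DNA glycosylase, cuts out the later oxidation products for repair. Mouse embryonic stem cells are known to express all 3 Dnmt3 genes, Tet1 and Tet2, to lose methylation in 2i medium, and to use an internal Dnmt3a promoter that gives a shorter protein.

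Across the lists, H3K4me3 peaks had a median length of 682 bp, CTCF peaks 104 bp and RAD21 peaks 140 bp, with shortest lengths of 294, 37 and 71 bp. Read depth is unknown. The labelled cell type was checked with H3K4me3 at marker genes: all 8 pluripotency genes with a listed start were marked (10 were sought), against 2 of 5 fibroblast genes (Twist1 and Vim, with Col1a2, Col3a1 and Acta2 unmarked, 10 sought). The share over all protein-coding genes was 58.2%, so the fibroblast count, of so few genes, separates little from it.

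H3K4me3 lay within 1 kb of the outermost (5'-most) listed start of 7 of the 9 genes, against the same 58.2% of all protein-coding genes. The 7 were Dnmt3a, Dnmt3b, Uhrf1, Tet1, Tet2, Tet3 and Tdg. Dnmt1 and Dnmt3l had none there but carried the mark at a start farther into the gene. Counting any listed start, all 9 genes were marked, against 59.6%. Of 1499 genes whose listed starts lie over 1 kb apart, 15% lacked H3K4me3 at the 5'-most start and had it at another. Of the 9 genes, 3 have such distant starts (Dnmt1, Dnmt3a and Dnmt3l), and 2 of these, Dnmt1 and Dnmt3l, showed that arrangement.

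The sequences that go with these differences are the 250 bases before a start, from RefSeq for GRCm38.p6, the assembly mm10 names, printed 5′ to 3′ on the gene's strand. In the first set, the unmarked outer start of Dnmt1 (chr9:20959889-20960138, minus strand) stands beside its second start (chr9:20952980-20953229, minus strand), where capitals mark the bases inside the called CTCF peak.
Dnmt1 start 1: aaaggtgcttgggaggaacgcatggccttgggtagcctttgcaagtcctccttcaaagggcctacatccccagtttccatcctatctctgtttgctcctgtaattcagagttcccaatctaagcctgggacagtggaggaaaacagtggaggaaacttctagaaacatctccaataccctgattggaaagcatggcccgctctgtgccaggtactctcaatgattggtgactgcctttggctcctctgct
Dnmt1 start 2: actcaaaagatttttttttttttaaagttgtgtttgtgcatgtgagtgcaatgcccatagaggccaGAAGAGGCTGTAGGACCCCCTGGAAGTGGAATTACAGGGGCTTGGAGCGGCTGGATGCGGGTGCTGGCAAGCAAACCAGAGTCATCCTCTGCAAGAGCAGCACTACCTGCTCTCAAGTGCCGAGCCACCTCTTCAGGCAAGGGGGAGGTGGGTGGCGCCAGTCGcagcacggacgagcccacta
The outer stretch holds 2 CpG sites in 250 bases and the second 7, of which 5 are in capitals. No base of the second stretch lies in the H3K4me3 peak, which begins downstream of that start. The stretch before the third start, not shown, has 199 of its 250 bases in that peak and holds 26 CpG sites. In the second set, the marked outer start of Dnmt3a (chr12:3806730-3806979, plus strand) has capitals throughout because the whole stretch lies in an H3K4me3 peak, and the internal start (chr12:3891494-3891743, plus strand) has none.
Dnmt3a start 1: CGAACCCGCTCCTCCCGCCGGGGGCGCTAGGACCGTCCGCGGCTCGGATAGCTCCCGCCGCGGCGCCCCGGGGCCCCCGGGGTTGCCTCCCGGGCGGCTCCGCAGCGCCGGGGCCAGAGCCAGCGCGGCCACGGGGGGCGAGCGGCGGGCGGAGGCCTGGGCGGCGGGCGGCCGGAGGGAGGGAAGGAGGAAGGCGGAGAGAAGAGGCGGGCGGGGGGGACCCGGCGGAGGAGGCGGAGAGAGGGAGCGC
Dnmt3a start 3: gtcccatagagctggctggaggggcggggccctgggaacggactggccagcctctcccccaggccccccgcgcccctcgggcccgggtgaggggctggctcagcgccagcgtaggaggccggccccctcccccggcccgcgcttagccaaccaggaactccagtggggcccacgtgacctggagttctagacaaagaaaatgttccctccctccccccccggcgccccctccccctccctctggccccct
They hold 38 and 15 CpG sites. In the third set, the unmarked outer start of Dnmt3l (chr10:78042037-78042286, plus strand) stands beside its second start (chr10:78049592-78049841, plus strand), with the H3K4me3 peak in capitals.
Dnmt3l start 1: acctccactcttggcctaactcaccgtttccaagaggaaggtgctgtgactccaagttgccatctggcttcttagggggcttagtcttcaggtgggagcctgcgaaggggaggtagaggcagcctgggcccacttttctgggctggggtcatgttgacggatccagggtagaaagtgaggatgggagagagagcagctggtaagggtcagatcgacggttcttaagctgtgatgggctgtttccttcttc
Dnmt3l start 2: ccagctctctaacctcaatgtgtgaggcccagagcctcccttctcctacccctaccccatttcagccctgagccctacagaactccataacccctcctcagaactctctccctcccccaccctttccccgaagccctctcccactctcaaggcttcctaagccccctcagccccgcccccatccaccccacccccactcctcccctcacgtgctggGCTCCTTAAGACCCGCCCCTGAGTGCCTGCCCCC
Both Dnmt3l stretches are CpG-poor, with 5 and 4 sites, and in the marked one the peak covers only the last 34 bases. Last, the start of Tet2 (chr3:133544391-133544640, minus strand) is shown because it falls in a gap between 2 H3K4me3 peaks and is the most CpG-rich of all starts of the 9 genes, with 51 sites in these 250 bases. Most of the stretch is made of near-copies of the same run of bases, so its CpG sites recur with the copies. Whether reads map uniquely there was not tested.
Tet2 start 1: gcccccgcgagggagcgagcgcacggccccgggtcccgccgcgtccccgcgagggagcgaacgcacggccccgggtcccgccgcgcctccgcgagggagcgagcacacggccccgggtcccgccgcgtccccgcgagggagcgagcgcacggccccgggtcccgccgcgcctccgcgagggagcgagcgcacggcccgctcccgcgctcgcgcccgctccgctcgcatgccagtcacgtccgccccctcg

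**Figure D1:**
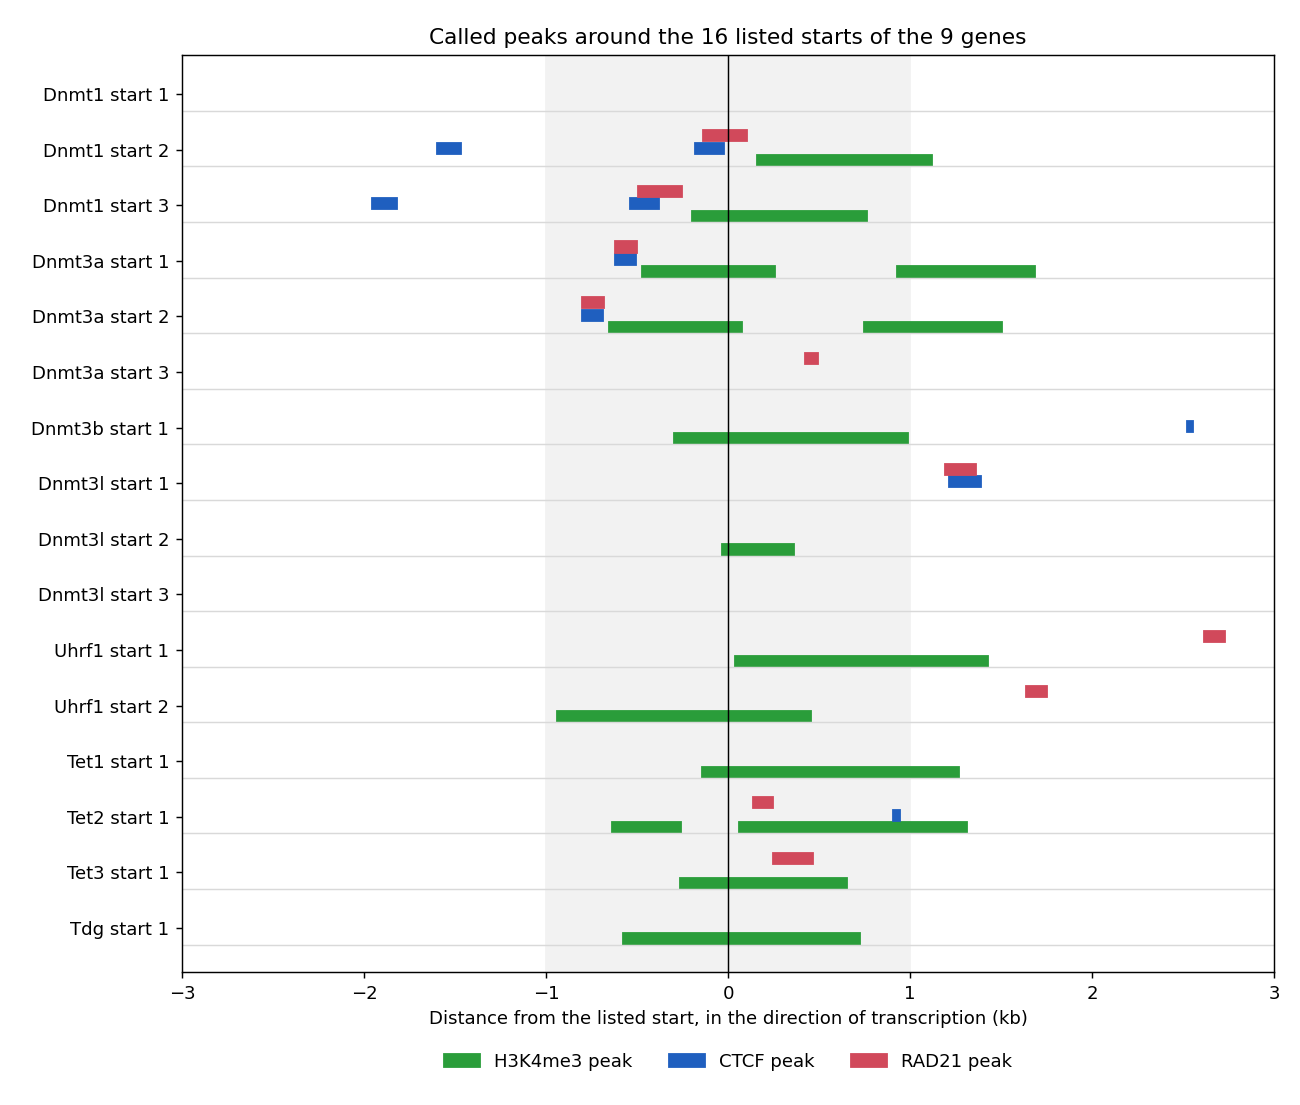
Called peaks within 3 kb of each of the 16 listed starts of the 9 genes. The x axis is the distance from the start in kb in the direction of transcription, the shaded band marks 1 kb either side, and green, blue and red bars are H3K4me3, CTCF and RAD21 peaks drawn to scale. Of the 16 starts, 12 have H3K4me3 in the band, and Dnmt1 start 1, Dnmt3a start 3 and Dnmt3l starts 1 and 3 do not.

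Dnmt1, the maintenance methyltransferase, spans chr9:20907206-20959888 on the minus strand and has 3 listed starts, at 20959888, 20952979 and 20952623. It is known for an oocyte-specific first exon beside the somatic one, although the table used does not name the transcript of each start. Its single H3K4me3 peak in the gene body (chr9:20951857-20952822, 966 bp) covered the third start and began 157 bp downstream of the second. The outermost start was 7.07 kb from that peak and 5.31 kb from the nearest CTCF peak. No peak of any list came within 1 kb of it.

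At the second Dnmt1 start a CTCF peak (chr9:20953000-20953163, 164 bp) ended 21 bp upstream, and a RAD21 peak (chr9:20952876-20953118, 243 bp) lay over the start and overlapped it. The CTCF core word AGGTGGC, on the strand opposite to the printed one, lies at chr9:20953034-20953040, inside both peaks and 61 bases before that start. CTCF with RAD21 thus adjoined the upstream side of the H3K4me3 peak, and neither overlapped it. Inside the gene there were 3 CTCF peaks with RAD21, at 6.81, 15.9 and 43.5 kb from the outer start, and another, of 135 bp at 5.38 kb, without RAD21.

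Uhrf1 (chr17:56303337-56323486, plus strand), which reads hemimethylated CpG and brings in Dnmt1, has listed starts at 56303337 and 56304313. A single H3K4me3 peak (chr17:56303375-56304768, 1394 bp) began 38 bp after the first and covered the second. More of it lay upstream (938 bp) than downstream (455 bp) of the second start, the only marked start of the 12 with that order. No CTCF or RAD21 was called within 1 kb of either start. The nearest were a 115 bp RAD21 peak without CTCF (2.62 kb downstream of the first start) and a 37 bp CTCF peak without RAD21 (4.61 kb upstream).

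Dnmt3a (chr12:3801559-3914443, plus strand), a de novo methyltransferase, is the longest of the 9 genes at 113 kb, and its gene model reaches upstream of its first listed start. Starts are listed at 3806980, 3807160 and, 84.8 kb inside, 3891744. The first 2 starts lay within a 734 bp H3K4me3 peak (chr12:3806506-3807239), followed after a gap of 667 bp by one of 762 bp (chr12:3807907-3808668). Upstream, a 115 bp CTCF peak (chr12:3806359-3806473) and a 123 bp RAD21 peak (chr12:3806358-3806480) overlapped, 507 and 500 bp from the first start. Both ended just before the H3K4me3 peak began.

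Inside Dnmt3a another H3K4me3 peak was called (chr12:3871137-3871748, 612 bp), 64.5 kb from the first start, with no listed start within 1 kb. It held a 167 bp CTCF peak (chr12:3871354-3871520) without RAD21, while a RAD21 peak of 80 bp lay just upstream (chr12:3870897-3870976). A CTCF and RAD21 pair followed just downstream (chr12:3871813-3871886 and chr12:3871813-3871905). This peak was 19996 bp upstream of the internal listed start, at which H3K4me3 and CTCF were not called. Only a RAD21 peak of the list's shortest length, 71 bp (chr12:3892166-3892236), lay near that start, 422 bp downstream. The internal H3K4me3 peak and the internal listed start of Dnmt3a are thus different places, and which of them the shorter transcript of the background uses was not tested.

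Dnmt3b (chr2:153649411-153687730, plus strand), the other de novo methyltransferase, has 1 listed start, at 153649449. It had 1 H3K4me3 peak (chr2:153649151-153650436, 1286 bp), which covered the start. No CTCF or RAD21 lay within 1 kb. The nearest CTCF peak was of the shortest length, 37 bp, 2.52 kb downstream and without RAD21, and the nearest RAD21 peak, of 398 bp, was 19.2 kb downstream, paired with a 243 bp CTCF peak.

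Dnmt3l (chr10:78042287-78063622, plus strand), the cofactor of both, has starts at 78042287, 78049842 and 78055335. Its only H3K4me3 peak in the gene body (chr10:78049808-78050205, 398 bp) covered the second start, 7.55 kb inside. At the first start no peak of any list came within 1 kb. The nearest were a 181 bp CTCF peak (chr10:78043499-78043679) and a 168 bp RAD21 peak (chr10:78043482-78043649), 1212 and 1195 bp downstream. That pair lies within 1 kb of a listed start of Aire, a regulator of transcription in the thymus that overlaps the same stretch. A 374 bp H3K4me3 peak 7.69 kb upstream of Dnmt3l lay inside Aire, away from any listed start.

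Tet1 (chr10:62804570-62887469, minus strand), a methylcytosine dioxygenase, has 1 listed start, at 62887324. It had the widest H3K4me3 peak at a start among the 9 genes (chr10:62886057-62887469, 1413 bp), with 1267 bp downstream of the start and 145 bp upstream. CTCF and RAD21 were first met together 5.88 kb downstream. All 4 CTCF peaks and all 4 RAD21 peaks in the gene body formed pairs. A further H3K4me3 peak of 846 bp (chr10:62892213-62893058) lay 5.31 kb upstream, inside the predicted gene Gm51805 and within 1 kb of an end of Gm26479, with no listed start near.

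Tet2 (chr3:133463677-133545136, minus strand) has 1 listed start, at 133544390. It had 4 H3K4me3 peaks in the gene, the most of the 9. A peak of 1250 bp (chr3:133543079-133544328) began 62 bp downstream of the start, and one of 383 bp (chr3:133544646-133545028) lay 256 bp upstream, so the start fell in a gap of 317 bp. Of the 12 marked starts of the 9 genes, only this one lay between 2 peaks. The other 2 Tet2 peaks lay 10.3 kb (chr3:133533840-133534244, 405 bp) and 38.0 kb (chr3:133506022-133506742, 721 bp) downstream, each away from any listed start and each overlapping RAD21 without CTCF.

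Within the 1250 bp Tet2 peak lay a 111 bp RAD21 peak (chr3:133544142-133544252), 138 bp from the start, and a 39 bp CTCF peak (chr3:133543445-133543483), 907 bp from it. These 2 did not overlap each other. Of the 14 RAD21 peaks in the Tet2 window, 10 had no CTCF, so 28.6% had it (Wilson 95% interval 11.7 to 54.6). This was the lowest share of the 9 windows, against 55.9% of the whole RAD21 list, and since it was picked as the lowest, the interval, over 14 neighbouring peaks, is no test of a difference. The 10 included 4 of the shortest length, 71 bp.

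Tet3 (chr6:83362373-83457208, minus strand), the TET enzyme best known from oocytes and neurons, has 1 listed start, at 83441678. An H3K4me3 peak of 919 bp (chr6:83441025-83441943) covered it, shared with a start of the lncRNA gene B230319C09Rik. A 221 bp RAD21 peak (chr6:83441211-83441431) lay inside that peak, with no CTCF nearer than 15.0 kb. At the outer end of the Tet3 gene model, 15.1 kb upstream of the listed start, lay the widest H3K4me3 peak of all 9 windows (chr6:83455998-83457494, 1497 bp). It held a 37 bp CTCF peak without RAD21. Since the promoter table lists no start there, this peak counts among those at a gene end only.

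Tdg (chr10:82629814-82650799, plus strand), the glycosylase, has 1 listed start, at 82629838, and 1 H3K4me3 peak in the gene (chr10:82629263-82630565, 1303 bp), which covered it. It was the one member with no CTCF in the gene body. The nearest CTCF peak was 36.7 kb downstream of the start, and 80.0% of protein-coding genes had one nearer, measured to peak midpoints. The one RAD21 peak in the gene, of the shortest length, 71 bp, had no CTCF.

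CTCF was within 1 kb of the 5'-most start of 2 of the 9 genes, Dnmt3a and Tet2, against 20.5% of all genes. RAD21 was there in 3, Dnmt3a, Tet2 and Tet3, against 32.8%. With any listed start, Dnmt1 joined both, giving 3 genes against 21.6% for CTCF and 4 against 34.4% for RAD21. These shares, of so few genes, were near the background.

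Among the 7 genes marked at the 5'-most start, 1, Tet3, had RAD21 without CTCF there, against 25.5% of all marked genes. Neither protein was called at 4, Dnmt3b, Uhrf1, Tet1 and Tdg, against 44%. In the gene body, H3K4me3 was found in 9 of 9 genes (63.5% of all genes), CTCF in 8 (50.1%, Tdg being the exception) and RAD21 in 9 (59.1%). With peaks longer than the list's median, RAD21 was left in the body of 6 genes, without Uhrf1, Tet1 and Tdg. All 9 genes, of 20.1 to 113 kb, were longer than the median gene of 17.2 kb, and the part of gene length in these counts was not tested.

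**Figure D2:**
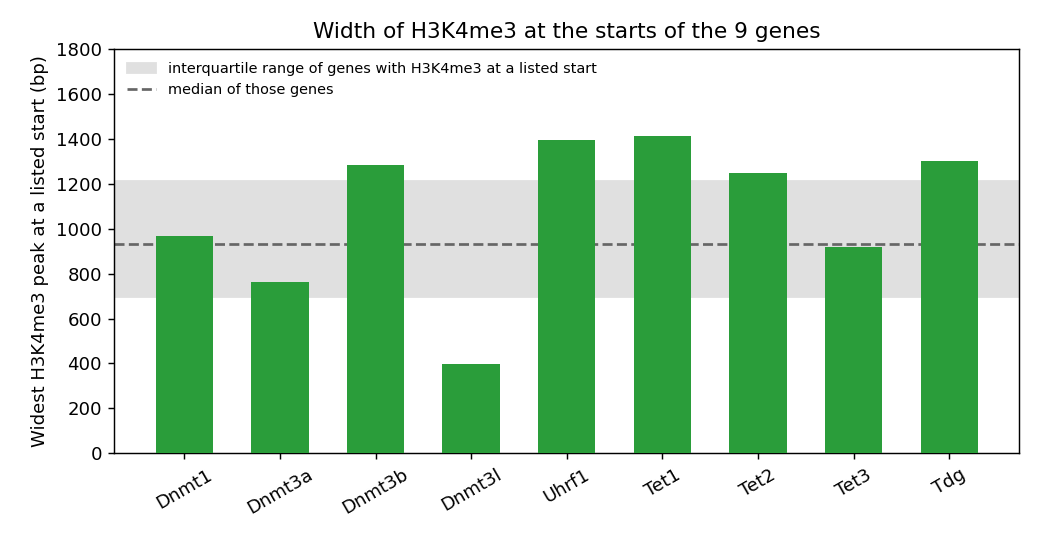
Length in bp of the widest H3K4me3 peak within 1 kb of any listed start, a bar for each of the 9 genes, with the median (930 bp, dashed) and the interquartile range (697 to 1214 bp, shaded) of the 10290 protein-coding genes that have one. Tet1, Uhrf1, Tdg, Dnmt3b and Tet2 stand above the shaded band and Dnmt3l below it. Split marks, as in Dnmt3a and Tet2, are not summed.

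The widest H3K4me3 peak at a start ranged from 398 bp in Dnmt3l to 1413 bp in Tet1, with a median of 1250 bp over the 9 genes, against 930 bp over 10290 marked genes. Tet1 was wider than 87.4% of those genes, Uhrf1 (1394 bp) than 86.5%, Tdg (1303 bp) than 81.0%, Dnmt3b (1286 bp) than 79.9% and Tet2 (1250 bp) than 77.6%. Dnmt1 (966 bp), Tet3 (919 bp) and Dnmt3a (762 bp) lay in the interquartile range, and Dnmt3l was wider than 4.86%. This measure takes a single peak per gene, and the mark of Dnmt3a and Tet2 was split. Summed within 1 kb of the 5'-most start, Tet2 had 1633 bp and Dnmt3a 1496 bp, above the 1413 bp of Tet1. The 762 bp Dnmt3a peak lay 747 bp from the nearest listed start, and the peak over its starts was 734 bp. Single-peak widths differed within classes, from 398 to 1286 bp among the Dnmt3 genes and from 919 to 1413 bp among the TET genes. Within 2 kb of a marked start, more marked bases lay downstream than upstream at 11 of 12 member starts, and at 81.1% of the 5'-most marked starts of all genes. Marked starts of Dnmt1, Dnmt3a and Uhrf1 are scored on the same peaks, so the 12 are not independent, whereas the background takes only the 5'-most start of each gene.

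CpG content was counted in 300-base windows, 250 before and 50 after each start, for all 16 starts. The 12 marked starts held 4 to 57 CpG sites with a median of 28.0, and the 4 unmarked ones 2 to 18 with a median of 4.5. Over 32619 windows of all genes the medians were 22 with H3K4me3 and 3 without, so the starts of the 9 genes followed the order seen genome-wide. Exceptions went both ways: Dnmt3l start 2 was marked with 4 sites, and Dnmt3a start 3 was unmarked with 18. Tet2 held the most, 57, followed by Dnmt3a starts 2 and 1 with 47 and 46.

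The GC box GGGCGG, on either strand, was present in 12 of the 16 windows, against 35.9% of all windows and 66.3% of those with H3K4me3. The 16 windows, which the CpG counts also used, include 4 unmarked starts and are not independent. Those of Dnmt3a starts 1 and 2, 180 bp apart, overlap and share GC boxes. The TATA word TATAAA was found in 0 of 16, against 13.7% of all windows and 6.08% of those with H3K4me3. The CTCF core was searched on either strand as the word AGGTGGC, with the variant word AGGGGGC, the variant word AGATGGC and the variant word AGAGGGC, and can overlap the GC box. It was found in 9 of 16 windows, against 27.7% of all windows and 35.5% of those with H3K4me3. The AGGTGGC before Dnmt1 start 2 lay inside a CTCF peak. No other window reached a CTCF peak, so the words found there could not lie in one. A match of these letters is a description of the sequence and not a binding site.

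**Figure D3:**
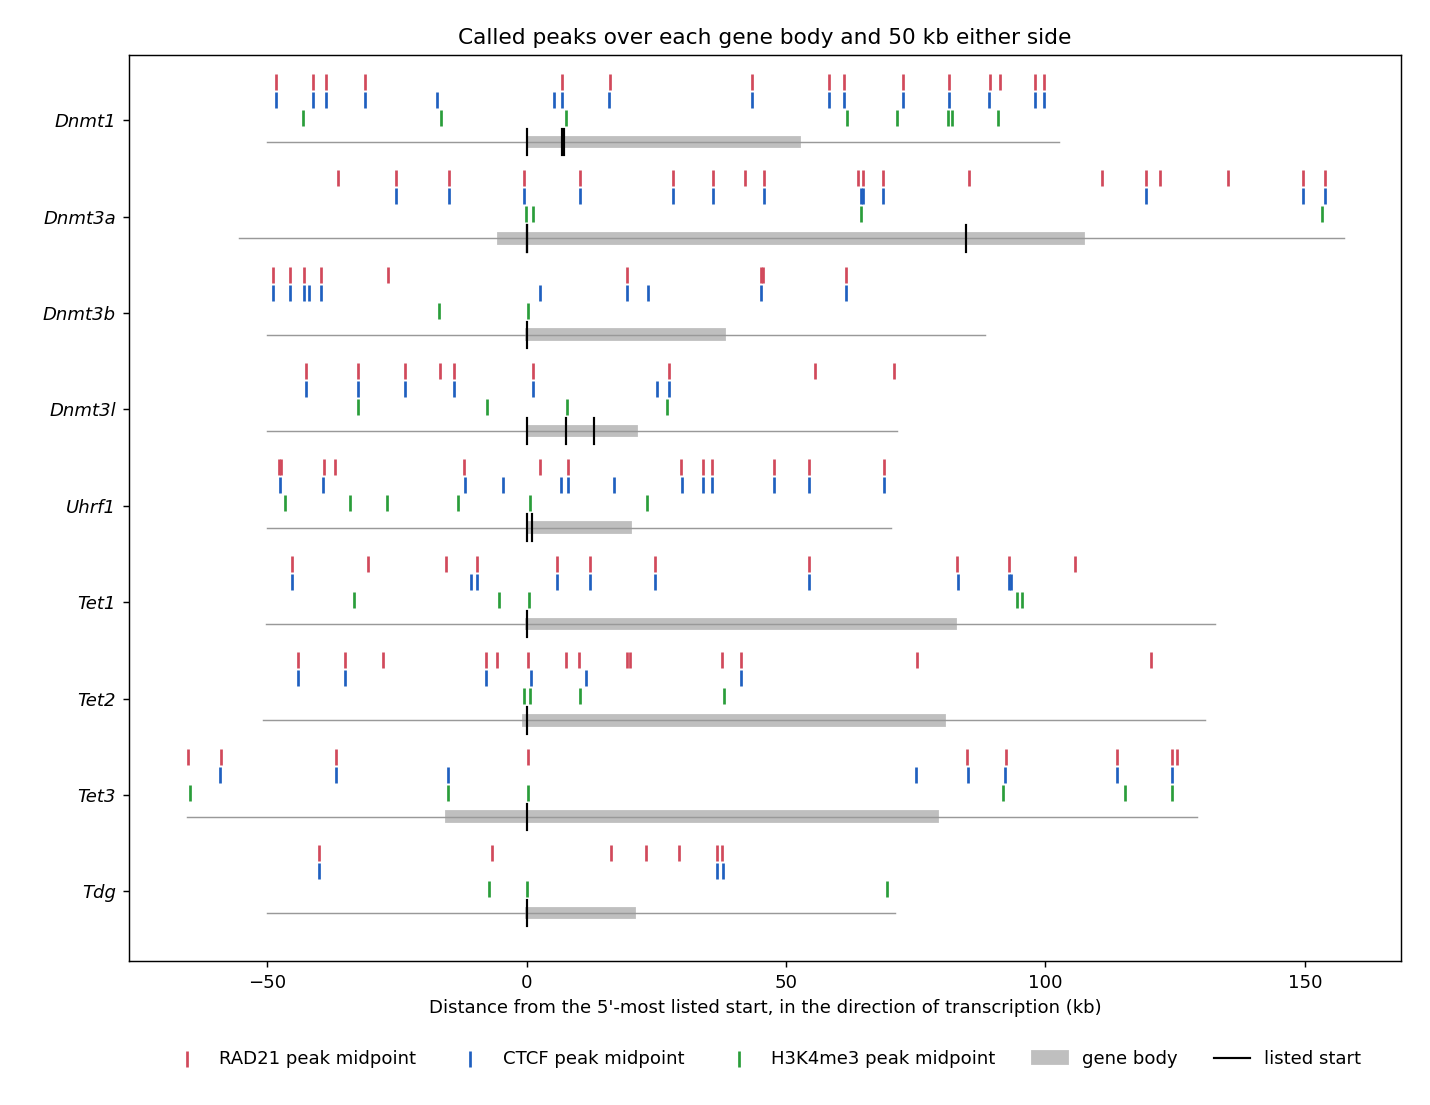
Midpoints of called peaks over each gene body and 50 kb either side, a row for each of the 9 genes, against distance from the 5'-most listed start in kb in the direction of transcription. Red, blue and green ticks are RAD21, CTCF and H3K4me3 peaks, the grey bar is the gene body and black lines are listed starts. In the Tet2 row 10 of 14 red ticks have no overlapping CTCF peak, and in the Tdg row no blue tick falls on the gene.

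Peaks were unevenly spread over the 9 windows. The Dnmt1 window held 39 (8 of H3K4me3, 16 of CTCF and 15 of RAD21), Dnmt3a 36 (4, 13 and 19 in the same order), Uhrf1 32 (6, 13 and 13) and Tet1 26 (5, 10 and 11). Tet2 held 24 (4, 6 and 14), Tet3 23 (6, 8 and 9), Dnmt3b 21 (2, 10 and 9), Dnmt3l 20 (4, 7 and 9) and Tdg 13 (3, 3 and 7). The maintenance pair, Dnmt1 and Uhrf1, had the densest windows. Per 100 kb, Uhrf1 had 10.8 CTCF and 10.8 RAD21 peaks, above 97.1% and 96.9% of genes. Dnmt1 had 10.5 CTCF and 9.82 RAD21 peaks, above 96.5% and 94.3%. Most of these peaks lay in the flanks. In the gene body were 3 of 13 CTCF and 2 of 13 RAD21 peaks for Uhrf1, and 4 of 16 and 3 of 15 for Dnmt1.

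For H3K4me3 the densities of Dnmt1 and Uhrf1 were 5.24 and 4.99 per 100 kb, above 88.7% and 87.8% of genes. Much of this came from neighbours: of the 8 H3K4me3 peaks in the Dnmt1 window 1 was its own, and 4 lay at listed starts of Angptl6, Ppan, Eif3g and S1pr2. In the Uhrf1 window 3 of 6 lay at starts of Fem1a, Ticam1 and Plin3. Over the 9 windows the median densities were 2.73, 5.77 and 7.42 for H3K4me3, CTCF and RAD21, against 1.8, 3.64 and 4.86 over all genes. Dnmt3b was below the median of all genes for H3K4me3, Tet2 and Tdg for CTCF, and Tet3 for RAD21.

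**Figure D4:**
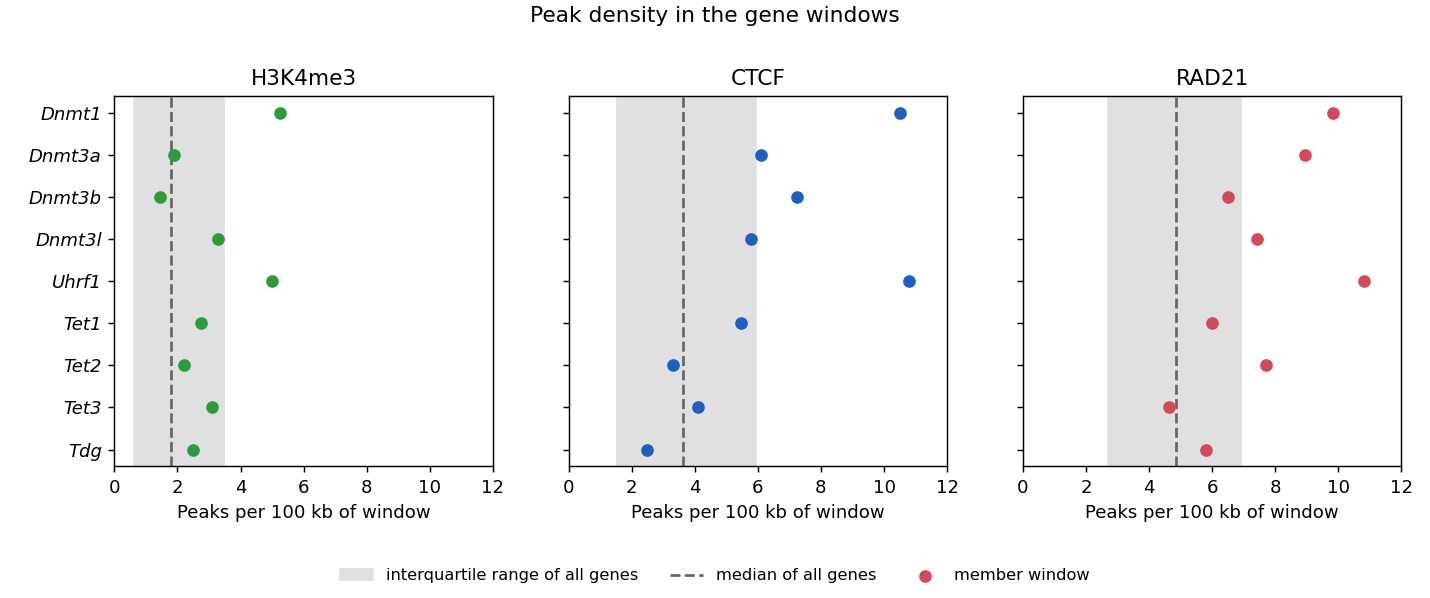
Peaks per 100 kb of window for H3K4me3, CTCF and RAD21, a point for each of the 9 genes, with the median (dashed) and the interquartile range (shaded) over 17274 protein-coding genes. Uhrf1 and Dnmt1 lie to the right of the shaded band in all 3 panels.

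An end of a gene here is either boundary of its gene model, 5' or 3', as at the outer end of Tet3. Of the 42 H3K4me3 peaks in the windows, 11 were at listed starts of the 9 genes and 19 at starts of neighbours. Another 6 were within 1 kb of a gene's end without a listed start near, and 6 at neither. The last class held 3 internal peaks of Dnmt3a and Tet2 described above, the peak in Aire, and 2 in the Dnmt1 window, in Angptl6 and Mrpl4. Other marked neighbours were Commd7 beside Dnmt3b, Pfkl and Icosl beside Dnmt3l, Ccar1 and Slc25a16 beside Tet1, and 1190007I07Rik and Hcfc2 beside Tdg. Beside Tet3 they were Mthfd2, Mob1a, Bola3 and Dguok. Every H3K4me3 peak in the Tet2 window lay in Tet2 itself.

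CTCF and RAD21 were mostly called together. Of the 86 CTCF peaks in the windows, 70 overlapped RAD21 by at least 1 bp (81.4%, Wilson 95% interval 71.9 to 88.2), against 81.9% of the whole list. Inside the 9 gene bodies the share was lower, 18 of 28 (64.3%, 45.8 to 79.3), against 79.4% inside all protein-coding genes. In the flanks it was 52 of 58 (89.7%, 79.2 to 95.2). Neighbouring peaks are not independent, and these intervals cover counting error only.

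The 16 CTCF peaks without RAD21 were short, with a median of 39 bp against 136.5 bp for the 70 with it. Lengths were not split this way over the whole list, so whether this is particular to these windows was not tested. Of the 16, 10 were 37 or 39 bp long. Long ones existed too: a 264 bp peak in Uhrf1 (chr17:56309821-56310084), a 191 bp peak at the S1pr2 start in the Dnmt1 window (chr9:20977093-20977283), the 167 bp peak in the internal H3K4me3 peak of Dnmt3a, a 147 bp peak in Tet2 (chr3:133532917-133533063) and the 135 bp peak in Dnmt1. Of the 106 RAD21 peaks, 71 overlapped CTCF (67.0%, 57.6 to 75.2), against 55.9% of the whole list. In the gene bodies it was 18 of 31 (58.1%), near the 57.1% inside all protein-coding genes, and in the flanks 53 of 75 (70.7%). The 35 RAD21 peaks without CTCF had a median of 113 bp, and 11 of them had the shortest length. Of the 71 with CTCF 4 had it, and so did 16.1% of the whole RAD21 list. H3K4me3 peaks overlapped RAD21 in 12 of 42 cases (28.6%, against 31.5%) and CTCF in 7 (16.7%, against 17.1%).

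On each side of each gene the nearest CTCF peak that overlapped RAD21 was taken, with no limit of distance. That each gene lies between such sites follows from this rule, and spans over all genes were not computed for comparison. From the nearest such site upstream of the gene to the nearest downstream, the span was 41.3 kb for Dnmt3l, 41.5 kb for Uhrf1, 76.6 kb for Tdg, 84.8 kb for Dnmt3b and 89.4 kb for Dnmt1. It was 92.5 kb for Tet1, 122 kb for Tet3, 134 kb for Dnmt3a and 146 kb for Tet2. Within the gene, Dnmt3a had 7 such sites, Tet1 4 and Dnmt1 3, and Tet3 and Tdg had none. For Tet1 the downstream site lay 0.243 kb past the gene's end, and for Tet2 it lay 57.2 kb past it, outside the window. No contact data were used, so nothing is said of loops.

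Of 41 other genes of the pathway that were sought, 30 had a listed start. H3K4me3 was at the 5'-most start of 27 (90.0%, against 58.2% of all genes), and the 3 without were Cxxc4, Zbtb38 and Zfp57. At any listed start only Cxxc4, which encodes a CXXC protein that binds Tet2, had none. RAD21 was at the 5'-most start of 11 (36.7%) and CTCF of 7 (23.3%), near the 32.8% and 20.5% of all genes. The CTCF genes were Mbd4, Zbtb33, Trim28, Setd2, Parp1, Neil1 and Mat2a.

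By role, H3K4me3 marked 5 of 6 methyl-CpG readers, 10 of 11 genes of maintenance and guidance and 7 of 7 of base excision repair. It marked 2 of 3 TET partners and 3 of 3 genes of methyl donor supply, all against 58.2% of all genes. RAD21 was at the start of 7 of 11 maintenance and guidance genes and 0 of 7 repair genes, against 32.8% of all genes. The others with RAD21 were the readers Mbd4 and Zbtb33, the TET partner Ogt and the methionine adenosyltransferase gene Mat2a. These are counts of a few genes in each role.

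For each of the 9 genes, the pathway gene of the same combination of marks at its 5'-most start with the nearest summed H3K4me3 length was found. Uhrf1 (1394 bp) and Tet1 (1413 bp) were most like Ehmt1 (1387 bp), a histone methyltransferase gene. Dnmt3b (1286 bp) and Tdg (1303 bp) were most like Zbtb4 (1303 bp), a methyl-CpG reader. Dnmt3a (1496 bp) was most like Mbd4 (1318 bp), Tet2 (1633 bp) like Trim28 (1814 bp) and Tet3 (919 bp) like Zfp445 (839 bp). A sum can join several peaks, so genes alike in it can differ in layout. The widest Zbtb4 peak was 872 bp, whereas Dnmt3b and Tdg each had a single peak. The widest peak was 1814 bp for Trim28 and 1250 bp for Tet2. Dnmt1 and Dnmt3l, with none of the 3 at the outer start, shared that with 3 of 30 genes, Cxxc4, Zbtb38 and Zfp57. These tied at 0 bp, so Cxxc4 was taken only as the first in alphabetical order. Unlike Cxxc4, Zbtb38 (widest peak 1151 bp) and Zfp57 (1178 bp) had H3K4me3 at another listed start, as Dnmt1 and Dnmt3l did.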

How the data were processed

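ChIP-exo peak lists for H3K4me3, CTCF and RAD21 were used as the authors deposited them: chromosome, start and end, with no score, count or signal, so position and length in bp were the only measurements. Per the submitters' processing notes, tools included MACS2, bedtools 2.30.0, Picard 2.27.4 and Bowtie2 2.4.5, with build mm10. Nothing states the settings, the calling threshold or a control library. CTCF peaks came as 1 union list, filed with CTCF replicate 2; what it joins is not stated, and CTCF replicates were not compared here.

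The 9 genes and the lists were chosen with earlier results of these data known. Peaks on the 19 autosomes and X were joined to RefSeq GRCm38.p6 gene ends and to promoter windows, which give the strand and each start. All 9 genes and 30 of 41 pathway genes were found in them, and 4357 protein-coding genes without a listed start were left out. A start was called marked when a peak came within 1 kb, and peaks overlapped when they shared 1 bp. Named were the 9 genes with their H3K4me3 peaks in the gene body and all peaks within 1 kb of a start, marked neighbours, pathway genes that complete a count of 5 or fewer, and the most similar pathway gene. Other peaks and the 7 CTCF-marked pathway genes were named after their values were seen. Wilson 95% intervals are given for some of the shares of overlapping peaks. Python 3.11.15, numpy 2.4.6, pandas 2.3.3, scipy 1.17.1 and matplotlib 3.10.9 were used, and overlaps were checked against bedtools 2.31.1 and on simulated data. Alternatives varied the start window, flank, overlap rule, merging and the peaks kept.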

Additional observations from a re-analysis of the deposited data

How the results depend on the processing

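Of 46 alternatives, 12 moved a count by over 1.5 times or a share beyond its interval, and 34 stayed within those limits, some with sizeable changes: 28 H3K4me3 peaks for 42 with 25 kb flanks, 153 RAD21 peaks for 106 with 100 kb flanks, and RAD21 in the body of 6 genes for 9 with longer peaks. H3K4me3 at the 5'-most start stayed at 7 genes with windows of 500 bp and 2.5 kb and with peaks longer than the median, the same 7 each time. CTCF there fell from 2 genes to 0 at 500 bp and to 1 (Dnmt3a) with longer peaks. RAD21 fell from 3 to 1 (Tet3) with longer peaks. Peak counts follow the flank by construction: 15 H3K4me3, 28 CTCF and 31 RAD21 peaks in gene bodies only, and 57 CTCF and 65 RAD21 peaks with 25 kb flanks. With peaks longer than the median 49 CTCF and 47 RAD21 peaks were left, and the share of CTCF with RAD21 was 57.1%, both lists being thinned; in gene bodies only it was 64.3%. No paired analysis was possible because there is 1 list per antibody and no groups were compared. Depth and a per-peak score are unknown, so how firmly each short peak was called could not be judged.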
